A study of Mus musculus with 161 samples.

Results

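Chromatin accessibility was examined at intergenic open sites that lie far from genes in mouse bone marrow-derived macrophages (BMDMs). ATAC-seq, in which the Tn5 transposase cuts and tags exposed DNA, had been counted over 150203 sites in 9 libraries. A site was taken as a member when its midpoint fell outside every annotated gene and more than 20 kb from any gene start (GENCODE, GRCm38/mm10), and 20859 sites (13.9%) met this rule. Cells came from C57BL/6J mice of 6 to 10 weeks, were grown with 20 ng/mL MCSF and 20% horse serum and were first stimulated on day 7. The M1 group (n = 3 libraries) received LPS at 100 ng/mL together with IFN-γ at 25 ng/mL for 24 h. The M1 → M0 group (n = 3) had the same stimulation, was washed in PBS and was then kept in base media for a further 72 h, to 96 h in all. The M0 group (n = 3) was unstimulated and was collected at 0 h. As no M0 ATAC library of 24 h or 96 h was analysed here, polarization and time in culture cannot be told apart in accessibility. RNA, described below, was also compared with M0 at 0 h only, although M0 RNA libraries of 24 h and 96 h entered its fit. The labels call the libraries of a group biological replicates but name no culture or animal, so p-values measure the spread between these libraries.

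Open sites far from genes are mostly distal regulatory elements, chiefly enhancers that act on promoters at a distance, together with sites of CTCF, a zinc finger protein that helps to fold chromatin into loops. In macrophages the lineage factor PU.1 opens many enhancers together with C/EBP and AP-1 factors. LPS activates NF-κB and AP-1 downstream of TLR4, while GAS and ISRE elements stand near many genes that interferons induce.

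The middle 200 bases of the sites with the largest differences are shown because the results turn on them. All are reference sequence of GRCm38, plus strand, 5′ to 3′, with motif matches in capitals. The motifs were PU.1 (GAGGAAGT), AP-1 (TGANTCA), C/EBP (TTGCNNAA), ISRE (GAAANNGAA), GAS (TTCNNNGAA), a PU.1-IRF composite (GGAANTGAA), NF-κB and CTCF, each read on both strands, where matches may overlap. Of the sites with the largest increases in M1 over M0, 2 are shown, which lay 44.6 kb upstream of Nos2 and 23.2 kb downstream of the start of Lgals9.
chr11:78876129-78876328: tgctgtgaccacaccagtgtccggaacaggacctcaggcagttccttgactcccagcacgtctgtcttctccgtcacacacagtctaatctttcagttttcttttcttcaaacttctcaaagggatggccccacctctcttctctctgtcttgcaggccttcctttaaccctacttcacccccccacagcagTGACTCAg
chr11:78961601-78961800: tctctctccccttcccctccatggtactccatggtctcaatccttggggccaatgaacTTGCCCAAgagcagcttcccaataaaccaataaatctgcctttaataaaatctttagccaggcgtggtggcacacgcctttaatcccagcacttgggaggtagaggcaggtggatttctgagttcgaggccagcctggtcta
The Nos2 window held 1 AP-1 match and the Lgals9 window 1 C/EBP match.

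The 3 sites with the largest decrease in M1 lay 25.9 kb upstream of Gm37712, 38.8 kb upstream of Vrk1 and 21.2 kb upstream of Gm6226.
chr1:184408267-184408466: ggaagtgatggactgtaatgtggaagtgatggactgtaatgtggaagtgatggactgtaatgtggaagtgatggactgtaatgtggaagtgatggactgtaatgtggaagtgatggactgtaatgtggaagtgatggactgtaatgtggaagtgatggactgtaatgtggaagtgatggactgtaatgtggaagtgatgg
chr12:105971302-105971501: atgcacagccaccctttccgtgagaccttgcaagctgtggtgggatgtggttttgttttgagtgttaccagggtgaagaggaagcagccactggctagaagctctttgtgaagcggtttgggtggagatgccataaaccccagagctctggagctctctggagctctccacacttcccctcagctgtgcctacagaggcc
chr7:58859053-58859252: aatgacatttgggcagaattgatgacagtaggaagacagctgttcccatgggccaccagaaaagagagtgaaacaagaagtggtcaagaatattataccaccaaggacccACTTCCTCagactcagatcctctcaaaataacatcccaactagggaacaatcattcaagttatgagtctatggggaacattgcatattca
The first is a tandem repeat that the masked reference does not mark, and the window near Gm6226 held 1 PU.1 match on the minus strand.

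For M1 → M0 against M0, the leading sites on the higher side lay 98.8 kb downstream of the start of AI606473 and 25.1 kb downstream of the start of Smpdl3a, and on the lower side 35.9 kb upstream of AC166654.1 and 30.7 kb upstream of Gm38232.
chr3:154429533-154429732: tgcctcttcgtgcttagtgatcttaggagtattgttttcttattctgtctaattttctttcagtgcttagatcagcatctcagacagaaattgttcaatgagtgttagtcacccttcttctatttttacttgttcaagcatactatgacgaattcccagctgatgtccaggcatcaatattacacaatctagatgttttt
chr10:57819295-57819494: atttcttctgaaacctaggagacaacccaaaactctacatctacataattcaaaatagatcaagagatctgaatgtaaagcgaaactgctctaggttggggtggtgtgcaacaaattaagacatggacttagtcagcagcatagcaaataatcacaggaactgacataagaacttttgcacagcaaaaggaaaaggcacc
chr17:31753487-31753686: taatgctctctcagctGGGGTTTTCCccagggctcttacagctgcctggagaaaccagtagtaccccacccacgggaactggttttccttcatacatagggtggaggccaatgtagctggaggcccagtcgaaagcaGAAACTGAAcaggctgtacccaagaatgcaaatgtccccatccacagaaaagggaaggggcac
chr5:138694591-138694790: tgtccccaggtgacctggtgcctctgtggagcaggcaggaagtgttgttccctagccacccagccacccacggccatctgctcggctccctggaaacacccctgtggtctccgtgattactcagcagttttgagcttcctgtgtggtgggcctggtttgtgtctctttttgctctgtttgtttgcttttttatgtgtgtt
The window near AC166654.1 held an NF-κB match and an ISRE match, and the other 3 held none.

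For M1 → M0 against M1, the leading sites lay 125 kb downstream of the start of Gm27211 and 27.7 kb upstream of 9130227L01Rik on the higher side, and 29.5 kb upstream of Arhgap24 on the lower side, where the Lgals9 site came next.
chr9:73317351-73317550: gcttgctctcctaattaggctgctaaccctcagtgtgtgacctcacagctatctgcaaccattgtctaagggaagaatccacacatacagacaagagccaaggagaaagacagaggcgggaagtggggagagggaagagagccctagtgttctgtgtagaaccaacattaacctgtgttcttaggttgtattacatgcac
chr1:55903447-55903646: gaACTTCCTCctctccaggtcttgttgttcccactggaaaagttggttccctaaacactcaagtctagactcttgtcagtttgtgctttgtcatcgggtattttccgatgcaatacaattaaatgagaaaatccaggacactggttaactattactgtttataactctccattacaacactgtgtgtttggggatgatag
chr5:102451828-102452027: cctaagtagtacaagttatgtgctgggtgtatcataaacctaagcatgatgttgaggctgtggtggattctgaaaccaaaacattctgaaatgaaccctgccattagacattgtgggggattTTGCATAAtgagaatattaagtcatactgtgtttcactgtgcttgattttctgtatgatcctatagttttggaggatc
A PU.1 match was found in the window near 9130227L01Rik and a C/EBP match in that near Arhgap24.

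The member with the highest mean count lay 44.2 kb downstream of the start of Ccr1, in a tandem array.
chr9:123924401-123924600: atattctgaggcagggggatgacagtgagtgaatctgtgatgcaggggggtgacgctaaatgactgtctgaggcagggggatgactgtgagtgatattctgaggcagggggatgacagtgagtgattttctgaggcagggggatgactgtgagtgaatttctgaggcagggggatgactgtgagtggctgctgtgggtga
Reads in such arrays can come from many copies, and how multiply aligned reads were treated is not given in the sources used here.

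Counts in sites summed to 3399222, 7917767 and 1730488 in M1, 8194529, 7099293 and 6316477 in M1 → M0 and 9354620, 5004005 and 7365338 in M0 libraries, and 28.2% of members had no count in M1 replicate 3, against 0.336% in M0 replicate 1. Counts below are normalized by edgeR's trimmed mean of M-values (TMM) to the mean library. All 9 macrophage markers examined had an open promoter site, with summed counts of 1843 to 2051 in M1, 1809 to 1895 in M1 → M0 and 1754 to 2184 in M0. Of other cell types, promoter sites were found for 3 of 6 neutrophil, 2 of 5 T and NK cell, 2 of 4 B cell, 1 of 4 erythroid, 1 of 3 mast cell, 2 of 3 fibroblast and 2 of 3 endothelial markers. Their sums were 3.89 to 12.9 in M1, 26.4 to 34.7 in M1 → M0 and 45.2 to 65.7 in M0 for mast cells. For fibroblasts they were 25.4 to 40.4 in M1, 38.4 to 55.5 in M1 → M0 and 69.7 to 85.0 in M0, for B cells 7.27 to 27.2 in M1, 24.8 to 37.0 in M1 → M0 and 37.0 to 44.1 in M0 and for erythroid cells 14.5 to 25.9 in M1, 29.1 to 30.9 in M1 → M0 and 31.0 to 53.9 in M0. M1 lay below M0 in these 4 types and in T and NK cells. T and NK cell sums were 29.1 to 55.0 in M1, 114 to 146 in M1 → M0 and 101 to 112 in M0, where Gata3 averaged 38.6 in M1, 113 in M1 → M0 and 86.3 in M0 and Cd2 5.61 in M1, 13.8 in M1 → M0 and 21.5 in M0. Sums overlapped between M1 and M0 for endothelial cells (69.1 to 117 in M1, 81.1 to 88.2 in M1 → M0 and 81.8 to 99.4 in M0) and neutrophils (142 to 289.7 in M1, 235 to 244 in M1 → M0 and 215 to 249 in M0). Among these markers Mpo, Cd3e, Cd79a, Gata1, Cpa3 and Cdh5 had no promoter site, whereas S100a8, Camp, Kit, Col1a1 and Pecam1 had. The part of other cells in the results was not tested.

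Members were narrower and weaker than promoter sites. Their median width was 377 bp, against 935 bp for the 19143 sites within 1 kb of a gene start, and their median mean count was 12.3, against 74.9. The median GC content of the middle 200 bases was 46.5%, against 60.5%. The 33570 sites inside genes but as far from a start had values close to those of members, with a median width of 387 bp, a median count of 13.8 and the same median GC content. At least 50% of the window was repeat-masked in 16.2% of members, against 10.8% of these intragenic sites and 3.95% of promoter sites. The nearest gene start was a median of 39.0 kb away, and the nearest protein-coding start 80.5 kb.

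Of all counts in sites, members took 8.22%, 8.52% and 7.94% in the M1 libraries, 9.12%, 9.01% and 9.17% in the M1 → M0 libraries and 8.54%, 8.08% and 8.61% in the M0 libraries. Every M1 → M0 library (9.10% ± 0.0844, SD, n = 3) lay above every M1 library (8.23% ± 0.292) and every M0 library (8.41% ± 0.291), while M1 and M0 overlapped. The intragenic sites over 20 kb from a start shared this order. They took 15.8% to 15.9% in M1 → M0, 14.5% to 15.4% in M1 and 13.9% to 14.8% in M0 libraries. The GC content of members weighted by their counts was 46.8% ± 0.0161 in M1, 46.7% ± 0.0505 in M1 → M0 and 47.5% ± 0.0710 in M0, and its part in the comparisons was not tested.

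To compare the groups, edgeR's quasi-likelihood test was fitted to all 9 libraries over the 127307 sites with more than 10 normalized counts in at least 1 library, with Benjamini-Hochberg adjustment over all of them and a threshold of 0.05. Of the members, 16395 passed this filter and 4464 did not. In all 3 groups 10175 members passed, and the others that passed were let in by high values in some groups. Only in M1 libraries 1267 passed, of which 425 stand among the members called higher in M1 than in M0 below. Only in M0 libraries 1316 passed, of which 402 stand among those called lower, and 845 passed only in M1 → M0 libraries. In the comparisons with M1 → M0, calls were not split by the group that let a member in. The counts given for them therefore include members that the filter let in through 1 group.

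After 24 h of LPS and IFN-γ, accessibility was higher than in M0 at 2744 members and lower at 2724 (16.7% and 16.6% of those tested), against 17.3% higher and 15.2% lower over all tested sites. These shares are near the background. As the libraries are bulk, fewer cells with open sites and less opening per cell cannot be told apart. Among the 10175 members that passed the filter in all 3 groups, 1926 rose and 1741 fell. The median log2 fold change of tested members was -0.16, against -0.06 over all tested sites. Changes of at least 4-fold were found at 609 members that rose and 606 that fell, of 16395 tested. Over all 127307 tested sites there were 4349 and 3416. Promoter sites were 9.27% higher and 19.3% lower, and intragenic sites 19.0% higher and 13.8% lower.

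At 96 h, after LPS and IFN-γ had been removed, accessibility was higher than in M0 at 2081 members and lower at 1071 (12.7% and 6.53% of those tested), against 10.6% higher and 9.16% lower over all tested sites. Promoter sites had the opposite split (5.70% higher and 17.1% lower), and intragenic sites were 12.9% higher and 5.91% lower. The difference was under 2-fold at 58.7% of the members that were higher and 44.6% of those that were lower, and at least 4-fold at 102 and 128. Over all sites called, it was under 2-fold at 62.4% and 53.9%, and at least 4-fold at 526 and 1006. The median log2 fold change of tested members was 0.08, against -0.00497 over all tested sites. The counts moved with the tool and with single libraries. DESeq2 called 1128 members higher and 479 lower. Without M0 replicate 1 there were 1387 and 649, and without M1 → M0 replicate 1, 2 or 3 the lower count was 638, 653 and 693.

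Between M1 → M0 and M1, accessibility was higher in M1 → M0 at 2354 members and lower at 1577 (14.4% and 9.62% of those tested), against 10.8% higher and 12.4% lower over all tested sites. The median log2 fold change of tested members was 0.18, against 0.02 over all tested sites. Promoter sites were 11.8% higher and 15.4% lower, and intragenic sites 11.8% higher and 10.8% lower.

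**Figure D1:**
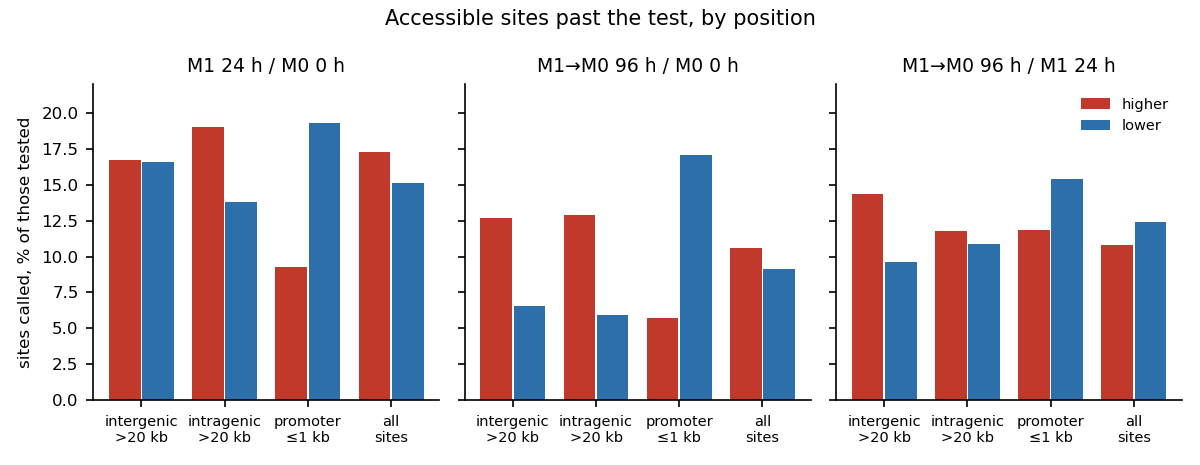
Bars give the percentage of tested sites called higher (red) or lower (blue) at an adjusted p below 0.05 in edgeR, for intergenic sites over 20 kb from any gene start, intragenic sites over 20 kb, promoter sites within 1 kb and all sites, in each of the 3 comparisons. In M1 → M0 against M0, intergenic sites were 12.7% higher and 6.53% lower, and promoter sites 5.70% higher and 17.1% lower.

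The comparisons share the M0 libraries, so their values are given side by side as a description. Members were chosen here because M1 differed from M0. The 2744 members that rose in M1 had a median of 46.6 normalized counts in M1, 29.1 in M1 → M0 and 17.6 in M0. Their median log2 fold change over M0 was 1.29 in M1 and 0.60 in M1 → M0. The 2724 members that fell in M1 had medians of 11.5 in M1, 24.6 in M1 → M0 and 30.9 in M0. Their median log2 fold change over M0 was -1.34 in M1 and -0.34 in M1 → M0.

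With distance from the nearest gene start, members became weaker. The share past the filter was 81.3%, 75.9%, 70.8% and 60.3% at 20 to 50, 50 to 100, 100 to 200 and over 200 kb, and the median count was 13.5, 11.1, 9.49 and 6.45. The share called higher in M1 over these distances was 17.4%, 15.3%, 14.7% and 23.0%, the last from 54 of 235 sites. For M1 → M0 against M0 it was 11.8%, 14.3%, 14.7% and 16.2%, and the share called lower was 7.29%, 4.96%, 5.54% and 3.83%. The part of site strength in this order was not tested.

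**Figure D2:**
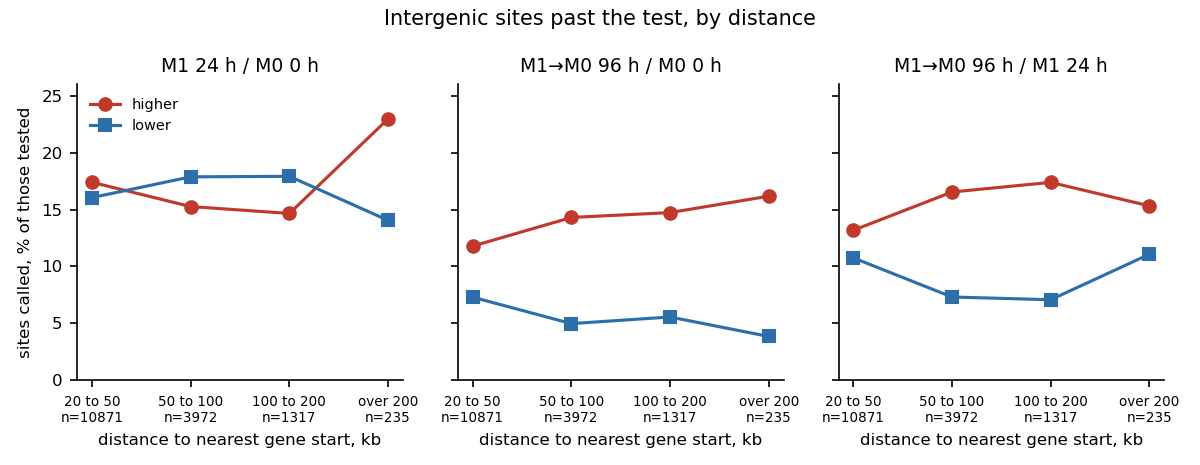
Points give the percentage of tested intergenic sites called higher (red circles) or lower (blue squares) against distance to the nearest gene start, with the number tested under each bin. In M1 → M0 against M0 the higher share was 11.8% at 20 to 50 kb and 16.2% beyond 200 kb, where only 235 sites were tested.

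At the sites that gained most in M1, M0 libraries were close to empty. The site upstream of Nos2 (chr11:78875956-78876502), the gene of inducible nitric oxide synthase, had normalized counts of 83.6, 100.3 and 134 in M1, 23.4, 18.5 and 18.8 in M1 → M0 and 3.89, 7.74 and 3.37 in M0. Its log2 fold change over M0 was 4.44 (SE 0.32, adjusted p = 3.7e-19) in M1 and 2.12 (SE 0.39, adjusted p = 3.0e-05) in M1 → M0, and no groups overlapped.

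The site near Lgals9 (chr11:78961147-78962255), the galectin-9 gene, had 222, 176 and 120.0 in M1, 7.54, 7.05 and 9.92 in M1 → M0 and 10.4, 7.74 and 5.89 in M0. Over M0 the log2 fold change was 4.42 (SE 0.24, adjusted p = 3.5e-25) in M1 and -0.03 (SE 0.41, adjusted p = 0.97) in M1 → M0, whose libraries overlapped those of M0. This site also lay within 200 kb of the Nos2 start, downstream of it, and is among the members counted around Nos2 below. RNA was read from RNA-seq libraries of the same conditions in FPKM (fragments normalized to transcript length and library size), and tested with limma on log2(FPKM + 1). Lgals9 RNA was 345, 419 and 391 FPKM in M1, 85.3, 79.5 and 77.9 in M1 → M0 and 38.4, 43.5 and 46.7 in M0. It was higher than in M0 in both groups, with log2 fold changes of 3.14 (SE 0.18, adjusted p = 6.7e-31) in M1 and 0.90 (SE 0.18, adjusted p = 4.2e-05) in M1 → M0.

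Where the nearest start belonged to a predicted or non-coding gene, the nearest protein-coding gene is also used as a landmark. A further 5 members with large gains in M1 had log2 fold changes of 4.23 to 4.39. The strongest (chr2:146605986-146606788), near 4933406D12Rik and with Ralgapa2 as nearest protein-coding gene 94.0 kb away, had 241, 190.0 and 244 in M1, 15.1, 37.9 and 25.8 in M1 → M0 and 13.0, 2.58 and 11.8 in M0, and its window held 10 overlapping ISRE matches in sequence that was 68.5% repeat-masked. Another (chr5:29919982-29920702), 92.8 kb upstream of Il6, the interleukin-6 gene, had 66.1, 74.4 and 76.3 in M1, 8.29, 13.2 and 5.95 in M1 → M0 and 3.24, 3.87 and 4.21 in M0, and held 1 C/EBP and 1 ISRE match. In both, M1 lay above the other groups. Il6 RNA was 4.57, 0.758 and 1.08 FPKM in M1, 0.427, 0.0353 and 0 in M1 → M0 and 0.146, 0.0308 and 0.0923 in M0, with a log2 fold change in M1 over M0 of 1.33 (SE 0.55, adjusted p = 0.031) that 1 M1 library led.

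The leading 8 losses in M1 were smaller than the leading gains, with log2 fold changes of -2.48 to -3.09. Over all called members the medians were 1.29 for gains and -1.34 for losses. M1 replicate 3, with 1730488 counts in all, had none at some of these 8 sites, which limits how far losses can be measured. The tandem repeat near Gm37712 (chr1:184408086-184408647) had 0, 10.5 and 7.27 in M1, 13.6, 19.4 and 18.8 in M1 → M0 and 62.3, 52.9 and 71.6 in M0. It fell by 3.09 on the log2 scale (SE 0.36, adjusted p = 1.4e-10) in M1 and by 1.87 on the log2 scale (SE 0.26, adjusted p = 1.0e-07) in M1 → M0. The site near Vrk1 (chr12:105971187-105971617), a serine/threonine kinase gene, had 11.7, 4.04 and 7.27 in M1, 19.6, 25.6 and 19.8 in M1 → M0 and 44.1, 56.8 and 49.7 in M0, and fell by 2.90 on the log2 scale (SE 0.38, adjusted p = 4.7e-09) in M1. The site near Gm6226 with the PU.1 match (chr7:58858744-58859561) had 15.6, 13.7 and 0 in M1, 69.3, 59.0 and 70.4 in M1 → M0 and 96.7, 87.8 and 89.2 in M0, and fell by 2.89 on the log2 scale (SE 0.27, adjusted p = 2.0e-14). At all 3, M1 → M0 lay between M1 and M0 without overlap.

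The most accessible of the other 5 in M0 (chr8:128035539-128036183) lay 323 kb upstream of Nrp1, the neuropilin-1 receptor gene, and had 17.5, 11.3 and 14.5 in M1, 48.2, 45.8 and 42.7 in M1 → M0 and 75.3, 72.3 and 77.4 in M0. Against M0 the log2 fold change was -2.48 (SE 0.27, adjusted p = 1.0e-11) in M1 and -0.72 (SE 0.18, adjusted p = 0.0024) in M1 → M0. Nrp1 RNA was 26.2, 32.4 and 28.5 FPKM in M1, 65.4, 82.1 and 77.9 in M1 → M0 and 65.1, 58.5 and 55.6 in M0, lower in M1 than in M0 with a log2 fold change of -1.02 (SE 0.18, adjusted p = 1.0e-06).

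**Figure D3:**
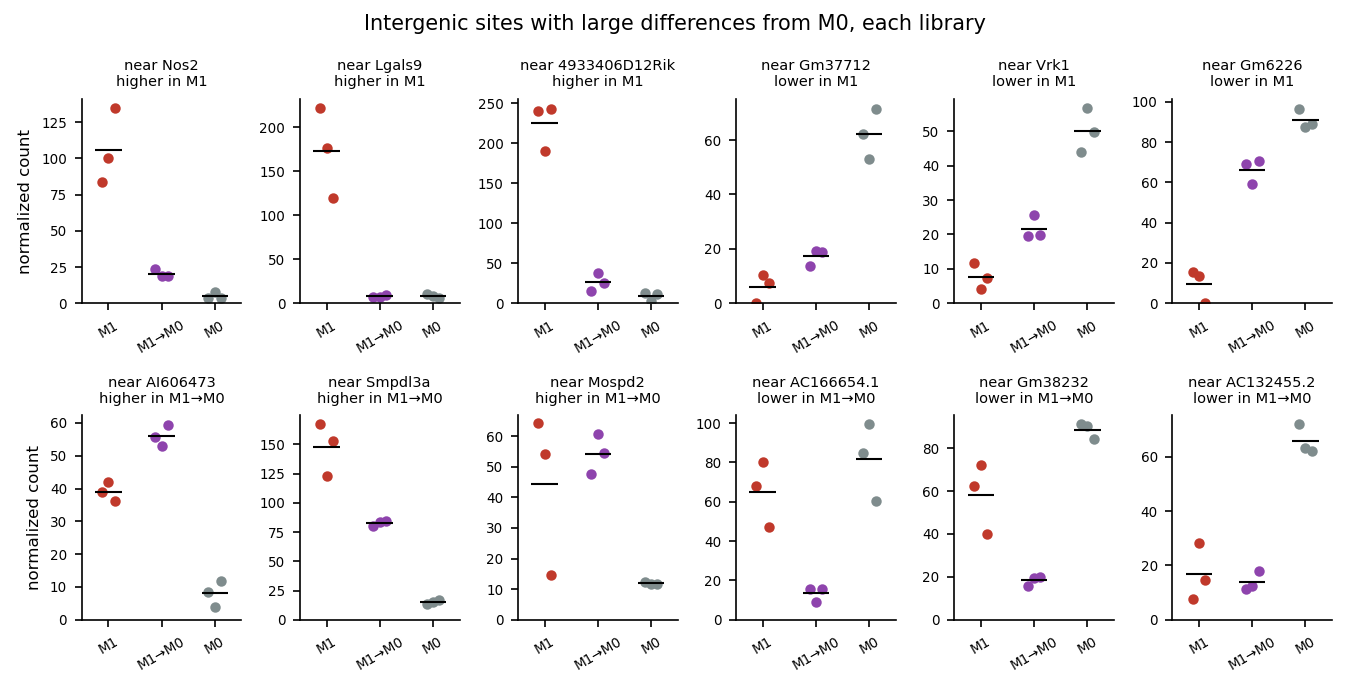
Each panel shows normalized ATAC counts of 1 intergenic site in the 9 libraries, M1 at 24 h (red), M1 → M0 at 96 h (purple) and M0 at 0 h (grey), with lines at the means. The site near Lgals9 had 120.0 to 222 counts in M1, and the site near AI606473 was highest in M1 → M0, with 52.9 to 59.5.

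Among the 8 leading gains of M1 → M0 over M0, the site near AI606473 (chr3:154429382-154429883) had 55.8, 52.9 and 59.5 in M1 → M0, 38.9, 42.0 and 36.3 in M1 and 8.44, 3.87 and 11.8 in M0, with a log2 fold change over M0 of 2.70 (SE 0.29, adjusted p = 3.1e-11), and M1 → M0 lay above both other groups. The site near Smpdl3a (chr10:57818878-57819912), a gene of the acid sphingomyelinase family, had 79.9, 83.7 and 84.3 in M1 → M0, 167, 123 and 153 in M1 and 13.6, 15.5 and 16.8 in M0. In M1 → M0 its log2 fold change was 2.44 (SE 0.21, adjusted p = 9.1e-15) over M0 and -0.78 (SE 0.15, adjusted p = 6.9e-05) over M1. Smpdl3a RNA was 179, 152 and 156 FPKM in M1 → M0, 155, 165 and 159.8 in M1 and 92.6, 82.2 and 88.8 in M0, higher than in M0 with a log2 fold change of 0.88 (SE 0.12, adjusted p = 1.4e-08) in M1 → M0.

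A site 107 kb upstream of Slco3a1 (chr7:74661930-74662502), an organic anion transporter gene, held 2 AP-1 matches and had 79.9, 93.4 and 89.3 in M1 → M0, 83.6, 67.9 and 98.1 in M1 and 22.7, 12.9 and 30.3 in M0, with a log2 fold change over M0 of 1.92 (SE 0.20, adjusted p = 1.9e-11). Slco3a1 RNA was 5.17, 5.68 and 5.41 FPKM in M1 → M0, 143, 118 and 143 in M1 and 1.496, 0.978 and 1.22 in M0. The accessibility of M1 → M0 overlapped that of M1, whereas the RNA did not. At 2 of these 8 sites M1 overlapped M0. One (chr4:63824184-63824637), 36.9 kb downstream of the start of Tnfsf8, the CD30 ligand gene, had 53.5, 61.7 and 53.6 in M1 → M0, 13.6, 29.9 and 36.3 in M1 and 15.6, 12.9 and 16.0 in M0. Its log2 fold change over M0 was 1.89 (SE 0.26, adjusted p = 6.6e-08) in M1 → M0 and 0.80 (SE 0.33, adjusted p = 0.051) in M1. The other (chr15:43624369-43625090), 148 kb downstream of the start of Emc2, gave 1.95 (SE 0.26, adjusted p = 3.7e-08) and 0.61 (SE 0.34, adjusted p = 0.16).

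Some of the largest losses of M1 → M0 were open in M1. The site with the NF-κB and ISRE matches (chr17:31753157-31754016) had 15.8, 8.81 and 15.9 in M1 → M0, 68.0, 80.0 and 47.3 in M1 and 85.0, 99.4 and 60.6 in M0. Its log2 fold change was -2.56 (SE 0.24, adjusted p = 2.5e-13) against M0 and -2.38 (SE 0.26, adjusted p = 5.2e-11) against M1, and M1 and M0 overlapped. The site near Gm38232 (chr5:138694216-138695165) had 15.8, 19.4 and 19.8 in M1 → M0, 62.2, 72.0 and 39.98 in M1 and 91.5, 90.4 and 84.2 in M0, and fell by 2.278 on the log2 scale (SE 0.21, adjusted p = 1.2e-13) against M0. Others were low in both stimulated groups. The site near Gm25866 (chr2:148578928-148579387) had 19.6, 18.5 and 20.8 in M1 → M0, 15.6, 21.8 and 21.8 in M1 and 77.9, 99.4 and 80.8 in M0. A site 81.7 kb upstream of Fzd7 (chr1:59399914-59401554), a Wnt receptor gene, had 46.7, 66.1 and 36.7 in M1 → M0, 35.0, 34.0 and 39.98 in M1 and 176, 147 and 173 in M0, and fell by 1.74 on the log2 scale (SE 0.15, adjusted p = 7.0e-15). Fzd7 RNA was 13.1, 12.3 and 11.5 FPKM in M1 → M0, 18.9, 17.8 and 19.2 in M1 and 11.1, 9.58 and 9.03 in M0, with a log2 fold change of M1 → M0 over M0 of 0.29 (SE 0.19, adjusted p = 0.28).

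Between M1 → M0 and M1, the site near Arhgap24 (chr5:102451731-102452125), had 2.26, 0 and 3.97 in M1 → M0, 58.3, 52.6 and 47.3 in M1 and 1.95, 2.58 and 5.89 in M0, and fell by 4.63 on the log2 scale (SE 0.51, adjusted p = 4.0e-11). A site 44.1 kb upstream of Pcgf5 (chr19:36303837-36304553), a Polycomb group gene, had 6.78, 0.881 and 0 in M1 → M0, 50.5, 61.4 and 76.3 in M1 and 6.49, 3.87 and 6.73 in M0, and held 6 overlapping ISRE matches. Pcgf5 RNA was 7.48, 6.96 and 8.25 FPKM in M1 → M0, 37.7, 19.5 and 21.8 in M1 and 5.55, 6.76 and 5.75 in M0. A site 208 kb from the start of Msr1 (chr8:39434056-39434998), the class A scavenger receptor gene, had 3.01, 7.93 and 7.94 in M1 → M0, 89.4, 86.5 and 65.4 in M1 and 3.24, 6.45 and 8.42 in M0. At these 3 sites M1 → M0 overlapped M0.

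On the higher side, the site near 9130227L01Rik (chr1:55903189-55903905) had 103, 86.4 and 92.2 in M1 → M0, 9.72, 16.2 and 7.27 in M1 and 49.96, 50.3 and 60.6 in M0. Its log2 fold change in M1 → M0 was 2.82 (SE 0.26, adjusted p = 3.2e-14) over M1 and 0.81 (SE 0.17, adjusted p = 1.6e-04) over M0. The site near Gm27211 (chr9:73317056-73317845) had 58.0, 75.8 and 61.5 in M1 → M0, 11.7, 9.70 and 0 in M1 and 38.9, 41.3 and 40.4 in M0. In both, every M1 → M0 library exceeded every M0 library. Of the 8 leading sites of this kind, 4 held a PU.1 or PU.1-IRF match. Among all members higher in M1 → M0 than in M1, 10.8% held a PU.1 match and 6.33% a PU.1-IRF match. The shares of tested members were 8.86% and 4.48%. Over all sites the order was the same, at 8.54% and 5.37% of those higher, against 7.52% and 4.06% of those tested.

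Of the 8 members with the highest mean counts, 6 were called in no comparison. The tandem array near Ccr1 (chr9:123923141-123925861) had 485, 458 and 504 in M1 → M0, 752, 699 and 691 in M1 and 740.4, 953 and 856 in M0, with a log2 fold change of M1 → M0 over M0 of -0.81 (SE 0.12, adjusted p = 3.7e-07). A 529-bp site near Gm47397 (chr12:97061341-97061869) had 572, 246 and 1032 in M1, 235, 269 and 303 in M1 → M0 and 199, 389.8 and 258 in M0, with a log2 fold change in M1 of 1.01 (SE 0.20, adjusted p = 4.2e-05). There M1 replicate 2 fell within the M0 range, and the higher values came from the M1 libraries with fewest counts.

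Among members averaging 20 counts or more, the 5 farthest from any gene start lay 339 to 446 kb away. Only the farthest (chr6:9726093-9727178) was called in M1, with 54.4, 46.1 and 50.9 in M1, 11.3, 15.9 and 15.9 in M1 → M0 and 12.3, 6.45 and 14.3 in M0 and a log2 fold change of 2.09 (SE 0.33, adjusted p = 6.8e-07). Its window was wholly repeat-masked and held 3 ISRE matches. Of the 4 members just over 20 kb, 1 was under the filter and none was called. Of the 4 otherwise eligible sites just under 20 kb, those near Gm37280 and Gm11677 had log2 fold changes in M1 of 2.13 and 2.06.

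Motif matches were counted over the middle 200 bases of 20858 members and 149952 sites in all. An AP-1 match stood in 17.8% of members, against 15.6% of all sites. The shares were 13.6% against 11.5% for C/EBP, 9.39% against 8.30% for ISRE, 9.05% against 7.67% for PU.1, 6.80% against 5.90% for GAS, 4.45% against 4.12% for PU.1-IRF, 4.31% against 4.501% for NF-κB and 3.62% against 3.20% for CTCF. A match describes the sequence and is not a bound site.

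Of members that rose, fell or were not called in M1, 31.7%, 9.18% and 17.9% held an AP-1 match. In the same order, the shares were 15.1%, 7.97% and 8.91% for ISRE, 17.3%, 11.6% and 13.6% for C/EBP and 5.79%, 3.78% and 3.80% for NF-κB. PU.1 and PU.1-IRF matches were more frequent among members that fell, at 5.21%, 10.6% and 9.34% and 3.35%, 6.498% and 4.27%. GAS matches stood in 7.80%, 6.02% and 7.19%. Over all tested sites AP-1 matches stood in 28.8% of those that rose and 6.91% of those that fell, so the AP-1 order is shared with sites elsewhere. For sites that rose, fell or were not called there, the shares were 13.4%, 6.57% and 7.61% for ISRE and 15.8%, 8.83% and 11.1% for C/EBP. They were 2.93%, 4.86% and 4.17% for PU.1-IRF and 6.88%, 5.35% and 5.90% for GAS. PU.1 stood at 5.56%, 7.93% and 7.93% and NF-κB at 5.30%, 4.78% and 4.39%.

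Of 660 tested members with a CTCF match, 3 rose in M1 (0.455%) and 163 fell (24.7%), whereas 17.4% of members without a match rose and 16.3% fell. In M1 → M0 against M0, 2 were higher (0.303%) and 71 lower (10.8%), against 13.2% and 6.36% of members without a match. Their median normalized count was 11.7, 13.7 and 14.5 in the M1 libraries, 16.6, 15.9 and 16.9 in the M1 → M0 libraries and 21.4, 19.4 and 21.0 in the M0 libraries, and the groups did not overlap. Over all tested sites, 21 of 4317 with a match rose in M1 (0.486%) and 968 fell (22.4%). The 3076 tested members with an AP-1 match had medians of 19.4, 21.0 and 18.2 in the M1 libraries, 18.8, 19.4 and 19.8 in the M1 → M0 libraries and 15.6, 14.2 and 16.0 in the M0 libraries, and here M0 was the lowest group.

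Between M1 → M0 and M0, AP-1 matches stood in 33.9% of members that were higher and 8.03% of those that were lower. The shares were 11.3% and 6.07% for ISRE, 16.3% and 12.7% for C/EBP, 7.11% and 9.80% for PU.1 and 3.27% and 5.42% for NF-κB. Over all tested sites they were 29.1% and 5.84% for AP-1, 11.6% and 5.82% for ISRE and 14.7% and 9.07% for C/EBP. For PU.1 they were 6.13% and 6.25% there, and for NF-κB 3.04% and 6.74%. Members lower in M1 → M0 than in M1 held NF-κB matches in 7.93% and ISRE matches in 15.6%, against 2.51% and 7.73% of those that were higher. Over all tested sites the order was the same, at 7.87% and 12.0% of those lower, against 3.84% and 7.27% of those higher. The median GC content was 44.5% in members that rose in M1 and 48.5% in those that fell, and its part in the motif shares was not tested.

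**Figure D4:**
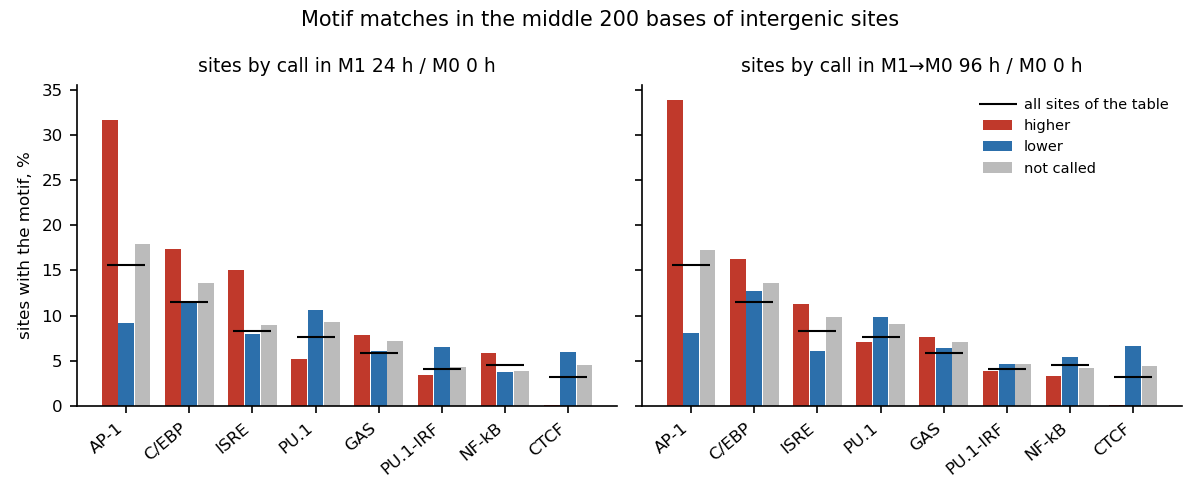
Bars give the percentage of intergenic sites with at least 1 motif match in the middle 200 bases, for sites called higher (red), lower (blue) or not called (grey) in M1 against M0 (left) and M1 → M0 against M0 (right), and black lines give the share over all sites. AP-1 matches stood in 31.7% of sites higher in M1 and 9.18% of sites lower.

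RNA of the gene nearest to each member was taken from a matrix of 8307 genes. Of 1700 genes nearest to a member that rose in M1, 343 were in the matrix. Of these, 158 (46.1%) had higher RNA in M1 and 67 (19.5%) lower, against 35.9% and 25.2% of all 8307. Of 288 measured genes nearest to a member that fell, 86 (29.9%) had higher RNA and 103 (35.8%) lower. At 96 h in M1 → M0, 59 of 231 genes beside members that were higher (25.5%) had higher RNA and 15 lower, against 14% and 8.39% of all genes. Beside members that were not called, 16.5% of 903 had higher RNA. With limma fitted to the compared groups only, 36 of the 231 genes beside members that were higher (15.6%) had higher RNA, against 10.6% of genes beside members that were not called. Beside members that were lower, 23 of 171 had higher and 25 lower RNA. The nearest gene need not be the one that a site acts on.

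Members within 200 kb of the starts of listed genes were then counted, with 17.3% higher and 15.2% lower over all sites in M1. Around 21 of 26 cytokine and chemokine genes, 29 of 94 rose (30.9%) and 14 fell (14.9%) in M1, with a median log2 fold change of 0.25. Around 22 of 26 genes of the interferon response and M1 effectors, 32 of 128 rose (25%) and 20 fell (15.6%) in M1, with a median log2 fold change of 0.07. Around 17 of 20 transcription factor genes, 39 of 185 rose (21.1%) and 25 fell (13.5%) in M1, with a median log2 fold change of 0.13. Around 8 of 15 genes of macrophage receptors and surface proteins, 10 of 66 rose (15.2%) and 14 fell (21.2%) in M1, with a median log2 fold change of -0.09. For M1 → M0 against M0, where 10.6% of all sites were higher and 9.16% lower, the cytokine list had 12 members higher (12.8%) and 5 lower (5.32%). The interferon and effector list had 11 members higher (8.59%) and 18 lower (14.1%), and the transcription factor list 13 members higher (7.03%) and 21 lower (11.4%). The receptor list had 4 members higher (6.06%) and 19 lower (28.8%), and 15 of the lower members lay around Ccr2.

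Nos2 had 13 members within 200 kb, of which 12 were tested. In M1, 7 rose with log2 fold changes of 1.08 to 4.44 and 1 fell, and 3 were higher than M0 in M1 → M0. The most accessible of them, 33.5 kb upstream (chr11:78886746-78887744), held 2 ISRE matches and 1 NF-κB match and had 128, 137 and 109 in M1, 39.9, 70.5 and 59.5 in M1 → M0 and 37.6, 23.2 and 35.4 in M0. This gave log2 fold changes over M0 of 1.95 (SE 0.19, adjusted p = 2.9e-13) in M1 and 0.74 (SE 0.20, adjusted p = 0.005) in M1 → M0. Nos2 RNA was 741, 519 and 613 FPKM in M1, 2.33, 1.35 and 1.26 in M1 → M0 and 0.170, 0.140 and 0.0316 in M0, with log2 fold changes of 9.12 (SE 0.36, adjusted p = 7.6e-43) and 1.23 (SE 0.36, adjusted p = 0.0081).

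Ccr2, the receptor by which monocytes follow CCL2, had 24 tested members within 200 kb, among them the tandem array near Ccr1. In M1, 2 rose and 4 fell. In M1 → M0 none was higher than M0 and 15 were lower, with log2 fold changes of -0.65 to -1.87, and 13 were lower than in M1. A member 155 kb downstream of the start averaged 180.3 counts in M1 → M0, 281 in M1 and 373 in M0. Ccr2 RNA averaged 0.733 ± 0.583 FPKM in M1 → M0, 6.71 ± 0.964 in M1 and 31.7 ± 17.3 in M0 (SD, n = 3), lower than M0 in M1 → M0 (limma, adjusted p = 4.7e-19).

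**Figure D5:**
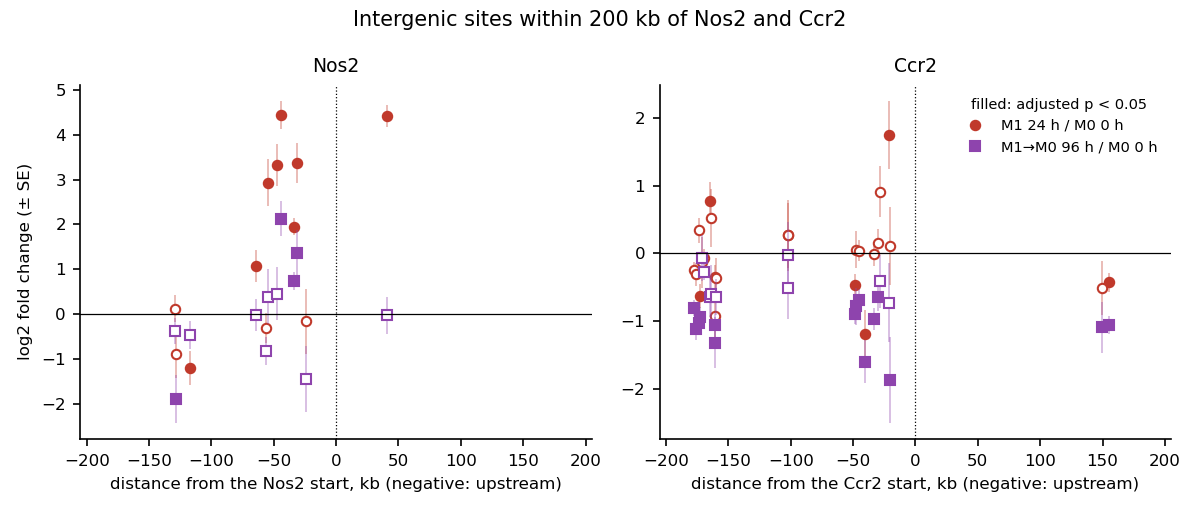
Points give the log2 fold change (± SE, edgeR) of each tested intergenic site within 200 kb of the starts of Nos2 and Ccr2 against its distance from the start, for M1 over M0 (red circles) and M1 → M0 over M0 (purple squares), filled where the adjusted p is below 0.05. In M1, 7 Nos2 sites rose, up to 4.44, and in M1 → M0 15 of 24 Ccr2 sites were lower.

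The chemokine genes Ccl2, Ccl7 and Ccl12 share 9 tested members, of which 6 rose and none fell in M1. The most accessible (chr11:82139395-82140388), 104 kb downstream of the Ccl2 start, had 159, 120.5 and 145.4 in M1, 58.0, 69.6 and 65.5 in M1 → M0 and 49.96, 38.7 and 69.0 in M0. Relative to M0 its log2 fold change was 1.34 (SE 0.17, adjusted p = 1.5e-09) in M1 and 0.25 (SE 0.17, adjusted p = 0.32) in M1 → M0. The most accessible member around Ptgs2 (chr1:150197524-150198354), the cyclooxygenase-2 gene, lay 97.9 kb downstream of the start, held an NF-κB match and had 132, 119 and 90.9 in M1, 27.1, 22.9 and 19.8 in M1 → M0 and 8.44, 14.2 and 18.5 in M0. It gave 3.14 (SE 0.25, adjusted p = 2.5e-17) in M1 and 0.83 (SE 0.30, adjusted p = 0.039) in M1 → M0, with no overlap between groups.

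Among regulators, 5 of 10 tested members around Klf6 and 5 of 8 around Fos, an AP-1 subunit gene, rose in M1 and none fell. Klf6 RNA averaged 213 ± 57.1 FPKM in M1 and 83.2 ± 34.5 in M0 (SD, n = 3, limma, adjusted p = 1.8e-08). Fos RNA averaged 207 ± 35.3 FPKM in M1 and 207 ± 231 in M0 (SD, n = 3, limma, adjusted p = 0.19). Around Egr2, a zinc finger factor gene, 5 of 14 rose and 1 fell, while its RNA was lower in M1, at 1.07 ± 0.687 FPKM in M1 and 22.7 ± 8.42 in M0 (SD, n = 3, limma, adjusted p = 3.5e-14). Around Acod1, the gene of the itaconate-producing enzyme, 1 of 14 rose and 5 fell. The most accessible (chr14:102906727-102908066) had 165, 108 and 61.8 in M1, 167, 154 and 173 in M1 → M0 and 227, 227 and 222 in M0, with a log2 fold change in M1 over M0 of -0.95 (SE 0.15, adjusted p = 4.5e-07). Around Nfkbia, the gene of an NF-κB inhibitor, 4 of 12 rose and 1 fell in M1, and in M1 → M0 none was higher and 4 were lower than M0.

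Members also lay in runs. Joining neighbours whose midpoints lay within a set distance, chromosome 18 left out, gave 9276 stretches, of which 5055 were single sites and 2348 held at least 3 sites. Over all tested sites 17.3% rose and 15.2% fell in M1. In the largest stretch, near Rapgef5 (chr12:117377906-117487830, 28 sites, 23 tested), 3 rose and 5 fell in M1. In a stretch near Plpp3 (chr4:105233706-105317423, 21 sites, 20 tested), a lipid phosphate phosphatase gene, 9 rose and 1 fell in M1. Its summed counts were 1168, 1049.5 and 1076 in M1, 850.0, 861 and 887 in M1 → M0 and 689.8, 687 and 737 in M0, without overlap between groups. In a stretch near Cd44 (chr2:102942020-103019500, 24 sites, 23 tested), the hyaluronan receptor gene, 10 rose and 2 fell in M1. Its sums were 1182, 1168 and 1076 in M1, 1097, 1087 and 1004 in M1 → M0 and 1017, 1013 and 920.1 in M0. Near Enpp6 (chr8:46868199-46923738, 22 sites, all tested) 5 rose and 1 fell in M1. Near Gm11084 (chr2:73007354-73086143, 20 sites, 19 tested) 2 rose and 2 fell in M1.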

How the data were processed

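ATAC-seq reads were aligned to mm10 with TopHat2 2.0.14 and stripped of PCR duplicates with SAMtools 1.9 by the authors, who called peaks on the merged alignments of all libraries with MACS2 2.1.0 and counted reads per peak with bedtools 2.28.0. The deposited values are raw counts, and peaks were not called per library. The treatment of multiply aligned reads and of the Tn5 offset is not given in the sources used here. RNA values were deposited by the authors as log10(FPKM + 1) from Cuffnorm 2.2.2, kept for genes that reached 10 FPKM in any library, and were turned back to FPKM. Columns of single-cell RNA-seq were not used.

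Sites were placed on GENCODE gene models of GRCm38 by their midpoints. Counts were normalized by TMM and tested with edgeR 4.0.16 (R 4.3.3) in 1 model of the 3 groups, by edgeR's quasi-likelihood test with Benjamini-Hochberg adjustment over the 127307 sites with more than 10 normalized counts in at least 1 library. RNA was tested with limma 3.58.1 on log2(FPKM + 1) over all RNA libraries, and fold changes on this scale understate those of low genes. Matrix work used Python 3.11.15 with numpy 2.4.6, pandas 2.3.3, scipy 1.17.1 and matplotlib 3.10.9. Both fits were tested on simulated data. DESeq2 1.42.0, other scalings, filters and distances, a replicate block and each library left out were alternatives.

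Sites were named by rule: in each comparison the 8 called sites with the largest change in each direction, averaging 50 or more normalized counts in 1 group, no overlap between the 2 groups compared and none within 1 kb of one already taken, the 8 with the highest means, the 4 on each side of 20 kb, the 5 farthest and the 5 largest stretches. Chromosome 18 was left out of named sites, and a few named items are not reported here. For listed genes, the member with the highest mean count within 200 kb was described. Which listed genes are described, and the second member given for Ccr2, were chosen after their values were seen. Motifs were searched on both strands in the middle 200 bases. The members and lists were chosen with earlier results of these data known. Total counts of 1730488 to 9354620 per library limit the precision at weak members, of which 4464 were under the filter.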

Additional observations from a re-analysis of the deposited data

How the results depend on the processing

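Each count of called members stayed within 1.5 times its value under other scalings (DESeq2 size factors or total counts alone) and other filters (none, filterByExpr or a mean of at least 10 normalized counts). DESeq2's own test called 1128 members higher and 479 lower in M1 → M0 against M0. Leaving out 1 library at a time gave 2032 to 2861 members higher and 2025 to 2654 lower in M1 against M0, 1387 to 2385 and 638 to 1295 in M1 → M0 against M0, and 1836 to 2378 and 1072 to 1691 in M1 → M0 against M1. A rule of over 10 kb from a gene start gave 4453 higher and 4204 lower in M1, 1902 lower in M1 → M0 against M0 and 2727 lower against M1, as it takes in more sites. Over 50 kb, with fewer sites, there were 853 and 979, 800 and 279, and 922 and 409 in the 3 comparisons. With protein-coding genes only, there were 5639 and 5435, 4131 and 2259, and 4518 and 3326. Genes with higher RNA beside members higher in M1 → M0 than in M0 numbered 36 (15.6%) when limma was fitted to the compared groups only, where 10.6% of genes beside members not called had higher RNA, and the cause was not tested. Deviations from the group mean hardly correlated between same-numbered libraries (-0.05 to 0.03). Counting noise at weak sites lowers such correlations, so they cannot decide whether the numbers pair samples. With the replicate block, 2462 members were higher and 2345 lower in M1, 1847 and 886 in M1 → M0 against M0, and 2025 and 1374 against M1. Motif shares were lower in the middle 100 bases, at 10.7% for AP-1 and 2.54% for CTCF. Every call by which a site was named for its change held under the 16 alternatives run for it. Depth limits weak members most in M1 replicate 3.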
